A study of Mus musculus with 23 samples.

Results

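The genes described here are Srf, which encodes serum response factor, and 9 genes of the contractile and matricellular programs that this factor and its partners are known to drive: Acta2, Tagln, Cnn1, Myl9, Tpm1, Tpm2, Vim, Ccn1 and Ccn2. They were chosen by name, each matched 1 Ensembl identifier of GRCm39, and they make up 10 of the 56941 genes in the count tables. The RNA came from primary neurons of the hippocampus of newborn (P0) pups of homozygous Nedd8cKO mice, in which LoxP sites flank part of Nedd8, the gene of a ubiquitin-like protein. The cultures received a lentivirus encoding either RFP alone (RFP, 11 libraries, the control) or CRE recombinase tagged with RFP (CRE, 12 libraries), and RNA was taken after 12 days in culture per the labels and 13 per the study's methods. The control cultures thus also carried the floxed alleles and received a virus. Both constructs were driven by the Synapsin1 promoter, which is active in neurons. Any non-neuronal cells of the dish were therefore not the cells that the promoter targets. The comparison asked how the RNA of these genes differed when Nedd8 was deleted. Library names such as Cre1-3 hold a culture number and a library number. The labels do not say in words that the first number marks a separate culture, so p-values over libraries may in part measure technical spread.

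Serum response factor is a transcription factor that binds the CArG box. It works with myocardin-related factors (MRTFs), which enter the nucleus when actin polymerization depletes the pool of monomeric actin, and with ternary complex factors, which respond to MAP kinase signalling. In smooth muscle and myofibroblasts the first arm drives contractile genes, and in neurons both arms take part in neurite growth and activity-dependent transcription. Ccn1 and Ccn2 are also classical targets of YAP and TAZ, cofactors of the TEAD factors. RhoA and its relatives are substrates of a CUL3 ubiquitin ligase, and cullins are the best known targets of neddylation.

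The 250 bases upstream of the start of 4 of these genes are shown with the letters that serum response factor and TEAD factors are known to bind. They are the factor's own gene, a gene that rose, a gene that did not and a YAP target that rose. RefSeq sequences of GRCm38.p6 held such a window for 8 of the 10 genes, all but Tagln and Ccn2. The CArG box was searched as its exact 10-letter consensus, whose pattern is the same on both strands, and also with 1 substitution allowed, a choice made after the data were seen. The TEAD letters CATTCC were searched on both strands. Matches are in capitals, those with 1 substitution included, and each sequence runs 5′ to 3′ on the strand of the gene.
Srf (chr17:46556163-46556412, minus strand): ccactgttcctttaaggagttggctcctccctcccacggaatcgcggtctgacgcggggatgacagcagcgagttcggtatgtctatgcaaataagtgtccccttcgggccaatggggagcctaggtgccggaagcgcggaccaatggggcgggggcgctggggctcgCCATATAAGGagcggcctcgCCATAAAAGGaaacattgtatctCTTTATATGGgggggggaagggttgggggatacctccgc
Myl9 (chr2:156775214-156775463, plus strand): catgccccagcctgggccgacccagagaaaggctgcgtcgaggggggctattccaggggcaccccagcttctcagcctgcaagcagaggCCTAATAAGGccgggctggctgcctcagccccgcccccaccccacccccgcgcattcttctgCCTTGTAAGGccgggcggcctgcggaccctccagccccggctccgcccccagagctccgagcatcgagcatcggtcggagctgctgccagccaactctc
Acta2 (chr19:34255374-34255623, minus strand): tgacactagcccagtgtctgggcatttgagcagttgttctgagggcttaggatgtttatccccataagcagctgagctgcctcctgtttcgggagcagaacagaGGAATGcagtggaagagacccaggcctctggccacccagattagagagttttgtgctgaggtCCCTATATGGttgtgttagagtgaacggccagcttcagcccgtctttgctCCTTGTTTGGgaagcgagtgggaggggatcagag
Ccn1 (chr3:145649986-145650235, minus strand): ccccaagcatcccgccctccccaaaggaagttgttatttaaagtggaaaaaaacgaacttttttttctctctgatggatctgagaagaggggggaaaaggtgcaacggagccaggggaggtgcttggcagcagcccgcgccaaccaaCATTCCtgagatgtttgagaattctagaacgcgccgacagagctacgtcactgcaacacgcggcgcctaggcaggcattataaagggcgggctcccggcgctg
Srf held 2 exact CArG boxes, which began 82 and 62 bases upstream of the start, and Myl9 held 1, which began 161 bases upstream. These were 2 of 8 genes, against 1.47% of all 32851 windows, which belonged to 27025 genes. The genes were chosen as known targets of serum response factor and its partners. The shares given here are therefore a description and no test. With 1 substitution allowed, Acta2 and Tpm1 also held a match, so that 4 of 8 genes did, against 18.6% of all windows. The TEAD letters stood in Acta2, Tpm1 and Ccn1, 3 of 8 genes against 12.6% of all windows, and overlapped no CArG match. In Ccn1 they began 103 bases upstream, and Cnn1, Tpm2 and Vim held none of these letters in this window.

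The 23 libraries held between 1546796 and 17112815 counts, and each of the 10 genes shared at most 0.44% of its 50-base stretches with the transcripts of another gene. The main comparison used 21 libraries, 11 CRE and 10 RFP, without Cre3-3 and RFP3-2, which are absent from the study's own count table. Mitochondrial genes took between 6.997% and 11.1% of counts in 20 libraries but 0.261% in Cre1-3, 1.83% in Cre3-3 and 3.44% in RFP2-4, and RFP3-2 gave 24.2% of its counts to Rn18s-rs5, against at most 4.06% in the 19 libraries outside these 4. Results are therefore also given over 19 libraries without these 4. Nedd8 ran from 44.1 to 76.0 CPM (counts scaled to a library total of 1000000) in the RFP and from 5.92 to 17.96 in the CRE libraries, so the groups were apart in the targeted gene in every library of the 21.

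The genes Ccn2, Ccn1, Myl9 and Vim, 4 of the 10, were higher in CRE than in RFP libraries, and none was lower. Of the 10, 9 had enough counts to be tested, and Cnn1 did not. Across all 14488 genes tested, 30.2% were past the threshold of an adjusted p under 0.05 in edgeR's quasi-likelihood test, 16.4% as higher and 13.8% as lower in CRE libraries. The 4 of 9 therefore stand against a high background, and no test was made of the set as a whole. Over the 19 libraries 38.1% of genes passed, and of the 10 members, all of them tested there, the same 4 did. The median log2 fold change of the 10 members was 0.69 over the 19 libraries. Over the 21 libraries it was 1.27 for the 9 tested members, the value of Tpm2, and 0.02 for all genes tested. The other 5 tested genes, among them Srf itself and the smooth muscle genes Acta2 and Tagln, did not pass.

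**Figure D1:**
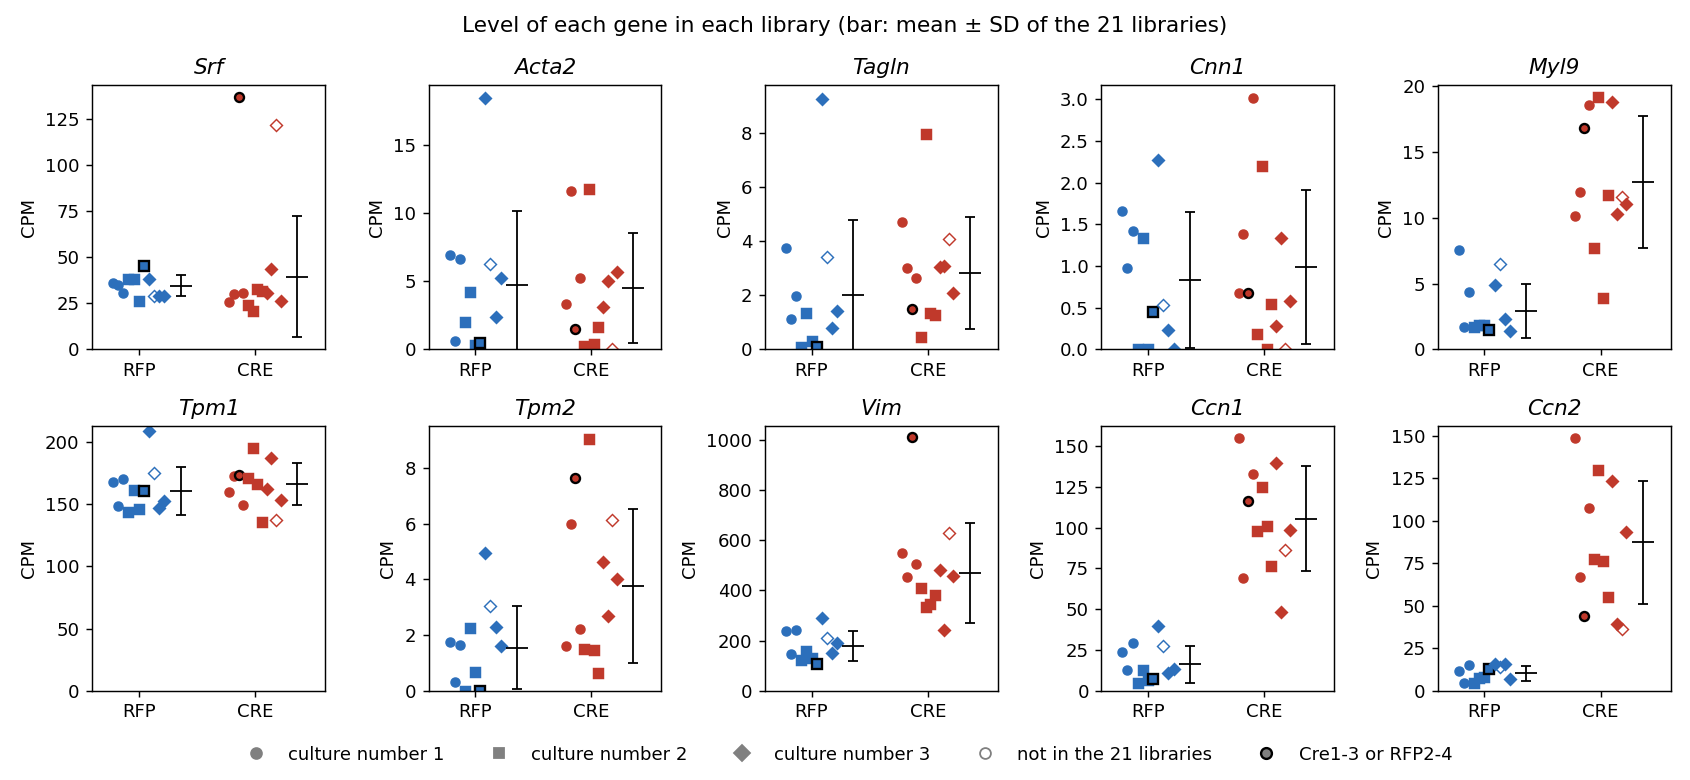
Level of each of the 10 genes in each library, in CPM on linear axes that start at 0, with RFP libraries in blue and CRE libraries in red. Shapes give the culture number, open symbols are the 2 libraries outside the 21, black outlines mark Cre1-3 and RFP2-4, and bars give the mean ± SD of the 21 libraries, cut off at 0. Ccn1 and Ccn2 do not overlap between the groups, Myl9 and Vim overlap in 1 CRE library each, and in Acta2, Tagln and Cnn1 the ranges of the groups largely coincide.

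Ccn2 and Ccn1 encode secreted matricellular proteins of the CCN family, which act on integrins and growth factors around the cell. Ccn2 ran from 4.50 to 15.7 CPM in the RFP libraries (median 9.76) and from 39.3 to 148 CPM in the CRE libraries (median 77.7). Every CRE library lay above every RFP library. The fold change was 8.48 (95% interval 5.72 to 12.6), or 3.08 ± 0.28 on the log2 scale (SE), with an edgeR adjusted p of 5.36e-09. Ccn1 ran from 5.01 to 39.9 CPM (median 12.9) in RFP libraries and from 48.4 to 155 CPM (median 101) in CRE libraries, again without overlap. Its fold change was 6.46 (4.16 to 10.0, edgeR adjusted p = 2.75e-07). Groups without overlap in this direction were found in 2.64% of all genes tested, and in 2 of the 9 members. In the 19 libraries the log2 fold changes were 3.20 for Ccn2 and 2.60 for Ccn1, with edgeR adjusted p of 9.76e-08 and 1.18e-05. Cre1-3, the library with few mitochondrial counts, held 44.0 CPM of Ccn2 and 116 CPM of Ccn1, both inside the range of the other CRE libraries.

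Of their relatives, Ccn3, which is enriched in neurons and often opposes Ccn2, went the other way. It averaged 144 CPM in RFP and 60.8 CPM in CRE libraries, and its log2 fold change was -1.27 ± 0.23 (edgeR adjusted p = 0.00013). Ccn4 averaged 1.52 and 2.24 CPM in the same order, with an adjusted p of 0.369 in edgeR's test. Ccn5 and Ccn6 had too few counts to be tested. The log2 fold changes of the tested CCN genes thus differed in sign. The call of Ccn3 was lost with libraries summed per culture number (log2 fold change -1.32, edgeR adjusted p = 0.0618).

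Vim encodes vimentin, the intermediate filament of mesenchymal cells, astrocytes and neural progenitors, and was, per length, the most abundant of the 10 genes. It ran from 108 to 288 CPM in RFP libraries (median 155) and from 244 to 1010 CPM in CRE libraries (median 455). All CRE libraries but 1 exceeded the highest RFP library, and Cre3-2, at 244 CPM, lay below RFP3-1, at 288 CPM. The fold change was 2.62 (95% interval 1.95 to 3.52, edgeR adjusted p = 1.27e-05). Its highest value came from Cre1-3, and over the 19 libraries the log2 fold change was 1.15 ± 0.17 against 1.39 ± 0.21 over the 21, with an adjusted p of 1.48e-05 in edgeR.
Among the other intermediate filament genes, Nes, which encodes nestin, the partner of vimentin in neural progenitors, averaged 126 CPM in RFP and 977 CPM in CRE libraries, and its log2 fold change of 2.93 was larger than that of any of the 10 genes except Ccn2. Gfap of astrocytes (702 and 609 CPM) and Ina of neurons (368 and 406 CPM) did not pass the test, and Des of muscle was at 0 in most libraries.

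Myl9 encodes the regulatory light chain of smooth muscle and non-muscle myosin, through which myosin light chain kinase switches contraction on. Its levels were low, from 1.41 to 7.54 CPM in RFP libraries (median 1.85) and from 3.93 to 19.2 CPM in CRE libraries (median 11.7). In 10 of 11 CRE libraries the level exceeded that of all RFP libraries, and Cre2-3, at 3.93 CPM, was below RFP1-1, RFP1-3 and RFP3-1. The fold change was 4.33 (95% interval 2.71 to 6.91, edgeR adjusted p = 2.07e-05), and the log2 value of 2.11 became 1.99 over the 19 libraries.
The 3 related light chain genes differed in direction. Myl12a rose from a mean of 10.2 CPM to 27.1 CPM, with every CRE library above every RFP library. Myl12b fell by 0.72 on the log2 scale (edgeR adjusted p = 0.00272), a call lost without culture 3 (edgeR adjusted p = 0.0525). Myl6, at means of 158 and 155 CPM, did not pass the test. Myl12a and Myl12b shared 6.44% and 9.0% of their 50-base stretches with transcripts of other genes, most of them with Gm49909, so their counts are less certain.

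Acta2, Tagln and Cnn1 encode smooth muscle actin, transgelin and calponin, the classical markers of the smooth muscle state, and none differed detectably between CRE and RFP libraries. Acta2 ran from 0.298 to 18.5 CPM in RFP (median 3.29) and from 0.278 to 11.8 CPM in CRE libraries (median 3.34). The log2 fold change was -0.07, and its 95% interval of -1.33 to 1.20 leaves room for changes of more than 2-fold either way. Tagln ran from 0.0834 to 9.29 CPM in RFP (median 1.23) and from 0.463 to 7.98 CPM in CRE libraries (median 2.63), with a log2 fold change of 0.49 ± 0.59 (edgeR adjusted p = 0.586). Cnn1 reached at most 3.02 CPM, was at 0 in 3 RFP and 1 CRE libraries, and had a log2 fold change of 0.22 ± 0.74 where the 19 libraries let it be tested.
These genes varied widely within each group. The coefficient of variation of Acta2 was 115% in RFP and 88.8% in CRE libraries, against 12.1% and 10.2% for Tpm1. Acta2, Tagln, Cnn1 and Tpm2 all had their highest RFP value in the same library, RFP3-1. So did Tpm1, Vim, Ccn1 and Ccn2, so this was not particular to the smooth muscle genes. Cre2-2 held the highest Acta2, Tagln, Tpm2, Myl9 and Tpm1 of the CRE libraries. Without RFP3-1 the log2 fold change of Tagln was 1.21 in place of 0.49, with an edgeR adjusted p of 0.105, and that of Acta2 was 0.49. The 10 markers of smooth muscle and pericytes listed further on summed to 49.95 CPM in RFP3-1 and 185 CPM in Cre2-2, inside the range of the other libraries of each group, as did Pdgfrb (6.19 and 10.7 CPM) and Myh11 (0.206 and 0.304 CPM). On average over each group, a large part of the marker sum was Rgs5. Lmod1, another smooth muscle gene, was 2.17 CPM in RFP3-1, its highest RFP value, and 2.58 CPM in Cre2-2.

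The tropomyosins Tpm1 and Tpm2 encode rods that lie along actin filaments and set which myosins and severing proteins can bind. Tpm1 was at 144 to 209 CPM in RFP and 135 to 196 CPM in CRE libraries. Its log2 fold change of 0.03 had the narrowest 95% interval of the 9 tested genes, -0.16 to 0.21, so that a rise like that of Vim lies outside it. Tpm2 ran from 0 to 4.95 CPM in RFP (median 1.62) and from 0.634 to 9.04 CPM in CRE libraries (median 2.67). The groups overlapped in 8 of the 11 CRE libraries, and the log2 fold change of 1.27 ± 0.60 had an edgeR adjusted p of 0.114. Without RFP3-1, the highest RFP library, it was 1.67 with an adjusted p of 0.0414 in edgeR's test, and limma-voom gave 1.96 with an adjusted p of 0.0385. Of the other tropomyosin genes, Tpm3 averaged 130 and 129 CPM in RFP and CRE libraries, and Tpm4 averaged 35.6 and 52.9 CPM with an edgeR adjusted p of 0.053.
The cytoplasmic actins Actb and Actg1 fell by 0.32 and 0.36 on the log2 scale (edgeR adjusted p = 0.00815 and 0.0301). Actg1 shared 50.6% of its 50-base stretches with other transcripts, so its counts are uncertain, and its call was lost over all 23 libraries (edgeR adjusted p = 0.194) and without RFP2-4 (0.0748). Cnn2, a calponin of non-muscle cells, rose by 1.84 on the log2 scale, Cnn3 and Tagln2 did not pass, and Tagln3, the neuronal transgelin, fell by 0.44 (edgeR adjusted p = 0.0399), a call lost in 12 of 36 alternatives, with adjusted p of up to 0.424 in edgeR without culture 2. Acta1 of skeletal muscle averaged 0.861 CPM in RFP and 1.04 CPM in CRE libraries and was not tested, and Actc1 and Actg2 were at 0 in most libraries.

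**Figure D2:**
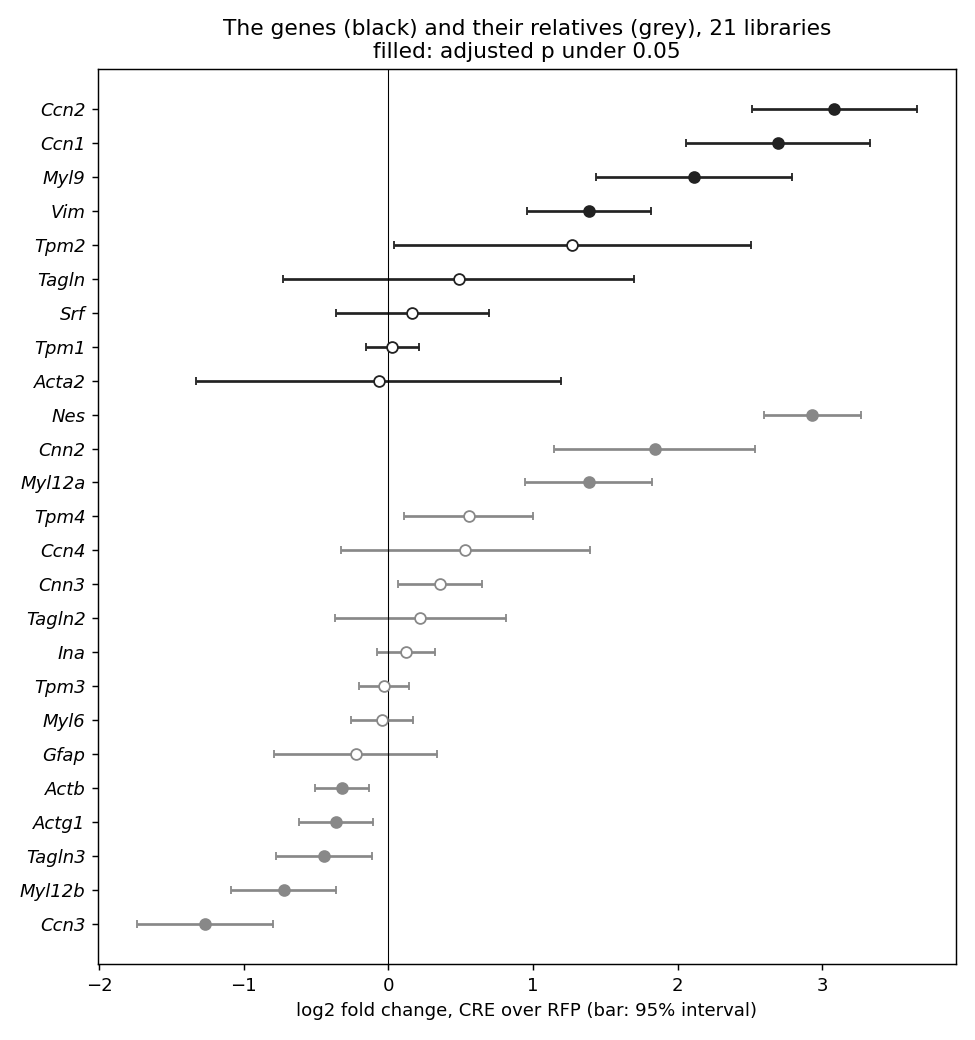
Log2 fold change of CRE over RFP over the 21 libraries, with 95% intervals, for the 9 tested genes (black) and their 16 tested relatives (grey). Filled symbols passed an adjusted p under 0.05 in edgeR, and the intervals of Acta2, Tagln and Tpm2 are the widest of the 9 genes.

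Srf itself ran from 26.5 to 45.1 CPM in RFP libraries (median 35.5) and from 20.8 to 137 CPM in CRE libraries (median 30.8). The other 10 CRE libraries lay between 20.8 and 43.5 CPM, whereas Cre1-3 stood alone at 137 CPM. The log2 fold change was 0.17 ± 0.26 over the 21 libraries (edgeR adjusted p = 0.678) and -0.19 ± 0.12 over the 19 (adjusted p = 0.24), so its sign rested on Cre1-3. Cre3-3, outside the 21 libraries, held 122 CPM. Both libraries were low in mitochondrial counts. The longest transcript of Srf has a GC content of 60.2%, higher than that of 96.9% of tested genes. Genes in the top 10% of GC content had a median log2 level 1.3 above the median of the other CRE libraries in Cre1-3 and 1.37 above it in Cre3-3, while all genes had medians of -0.13 and -0.35, and Srf lay 2.16 and 1.99 above. The part of GC content in the Srf values was not tested.
Of the genes that act on serum response factor, 24 of 26 were tested. In CRE libraries 3 were higher and 3 lower, a share no greater than the 30.2% of all genes that passed, and the list median was 0.07 on the log2 scale. The MRTF genes Mrtfa and Mrtfb had log2 fold changes of -0.15 and -0.13 and did not pass, and Myocd was at 0 in most libraries. Elk3, a ternary complex factor that can repress, rose by 0.82 (edgeR adjusted p = 0.000667), Elk1 fell by 0.52, Rhoc rose by 0.93, and Rhoa, at 0.22, did not pass. The CUL3 adaptors that bind RhoA were split, as Tnfaip1 rose by 0.63 and Kctd13 fell by 0.87, though Kctd13 did not pass over all 23 libraries (edgeR adjusted p = 0.109). Kctd10, also of this family, had a log2 fold change of 0.44 and did not pass (edgeR adjusted p = 0.0548). Cfl1, cofilin, which severs actin filaments, fell by 0.40. The calls of Elk1 and Cfl1 were lost without culture 2 (edgeR adjusted p = 0.15 and 0.0683). Over the 19 libraries 5 were higher and 6 lower, where 38.1% of all genes passed, and 11 in all passed when Cre1-3 alone was left out.

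The rises were found within each culture number. For Ccn2 the log2 fold changes were 3.08 ± 0.52, 3.38 ± 0.47 and 2.75 ± 0.53 (SE) in cultures 1, 2 and 3. For Ccn1 they were 2.40 ± 0.46, 3.65 ± 0.44 and 2.16 ± 0.47. Those of Myl9 lay between 1.63 and 2.62, and those of Vim between 0.90 and 1.57. Acta2, Tagln and Srf changed sign between cultures. Acta2 went from -0.92 ± 1.13 in culture 3 to 1.04 ± 1.01 in culture 2, and Tagln from -0.49 ± 0.99 to 2.64 ± 0.95 in the same cultures. Srf went from -0.45 ± 0.39 in culture 2 to 0.70 ± 0.43 in culture 1, the culture of Cre1-3. Apart from Tagln in culture 2, these SEs were large against the values. Tpm2 was above 0 in all 3, and Tpm1 lay between -0.02 and 0.11.
None of the 9 genes passed the test of whether the effect of CRE differed between culture numbers (edgeR interaction terms), where 0.0069% of all genes did, and the smallest adjusted p, 0.977, was shared by all of these genes but Tpm1. At an unadjusted p under 0.05 there was 1, Ccn1, with p = 0.0429 in edgeR. When libraries were summed per culture number, 3 sums against 3, the same 4 genes passed, with edgeR adjusted p of 6.77e-07 for Ccn2, 0.00437 for Ccn1, 0.000514 for Myl9 and 0.00303 for Vim.

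**Figure D3:**
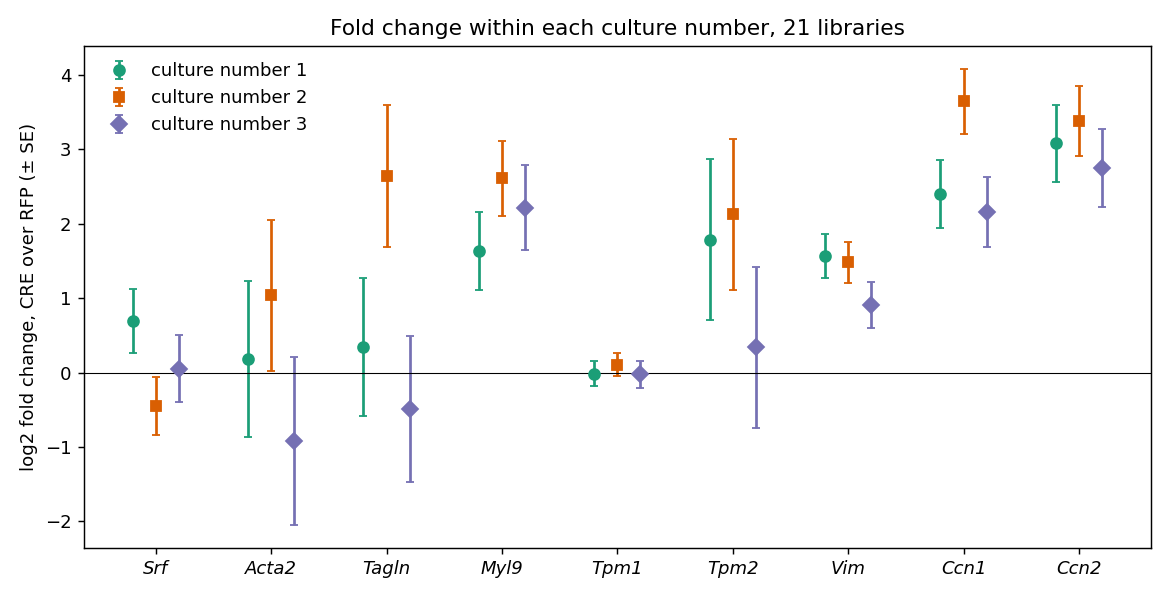
Log2 fold change of CRE over RFP within each culture number, with SE, for the 9 tested genes over the 21 libraries. Ccn2, Ccn1, Myl9 and Vim are above 0 in all 3 cultures, and Acta2, Tagln and Srf lie on both sides of 0.

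Correlations between pairs of the genes within groups and cultures did not pass the test over the 21 libraries. After the mean of each group in each culture number was subtracted from log2(CPM + 0.5), Acta2 and Tagln had a Pearson r of 0.797 and a Spearman correlation of 0.766 over 21 libraries, and r was 0.721 without the 2 libraries farthest from the median of Acta2. Acta2 and Cnn1 had an r of 0.73 and a Spearman correlation of 0.64. Ccn1 had an r of 0.702 with Vim and of 0.653 with Ccn2. Of 45 pairs, 0 passed an adjusted p under 0.05 by both measures in permutation tests of 100000 resamples within group and culture, and the smallest adjusted p was 0.0576 for Pearson's r and 0.0814 for Spearman's correlation. Over the 19 libraries 2 pairs passed by both, Vim with Ccn1 (r = 0.857, permutation adjusted p = 0.027) and Ccn1 with Ccn2 (r = 0.762, adjusted p = 0.027). These libraries share depth and culture conditions, which such a correlation cannot separate.
The 5 other genes whose residual profile was most like the mean of the 9 were Igfbp5 (r = 0.869 over 21 libraries), Cnn2 (0.856), Cavin1 (0.841), 9530068E07Rik (0.833) and Fmod (0.813). They were picked as the best of all genes, so no p is given. Igfbp5, Cnn2, Cavin1 and 9530068E07Rik also rose in CRE libraries, with log2 fold changes of 1.46, 1.84, 1.77 and 0.46. Fmod, at -0.06, did not pass, and its highest value of the 21 libraries, 59.2 CPM, was in RFP3-1.

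**Figure D4:**
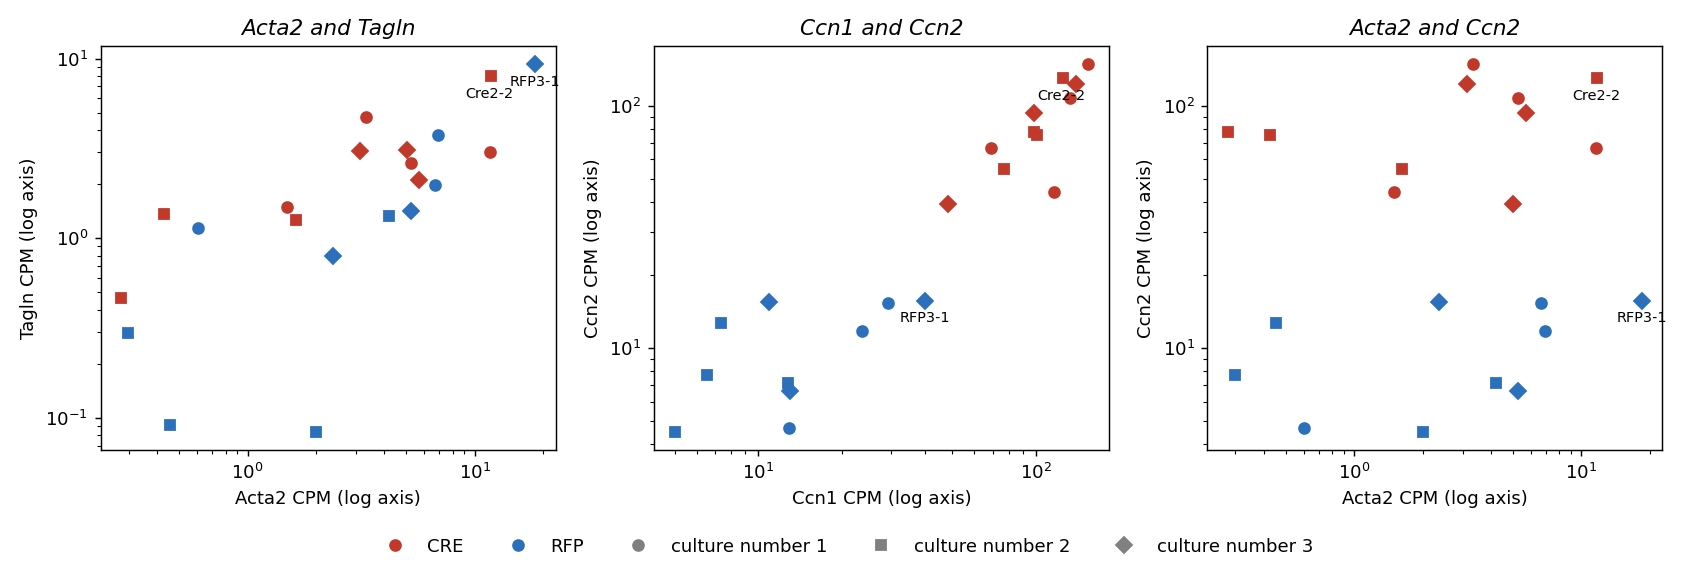
CPM of pairs of genes on log axes, 1 point for each of the 21 libraries, RFP in blue and CRE in red, with shapes for the culture number. Ccn1 and Ccn2 separate the groups, the ranges of Acta2 and Tagln largely coincide in both groups, and RFP3-1 and Cre2-2 hold the highest Tagln.

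Levels between genes were compared per length, as TPM, counts per exon base of each gene scaled to a total of 1000000. Exon bases were those of all annotated transcripts merged, such as 4752 for Vim and 8077 for Tpm1, so the order depends on these lengths. Without division by length, Vim and Tpm1 averaged 177 and 161 CPM in RFP libraries. In RFP libraries the order was Vim (155 ± 46.5 TPM, SD, n = 10), Tpm1 (83.4 ± 9.15), Srf (33.1 ± 7.21), Ccn1 (32.6 ± 21.3) and Ccn2 (13.4 ± 5.87), and the other 5 genes averaged between 1.25 and 5.87 TPM. From Srf downward, no neighbours in this order were apart by more than their combined SD. In CRE libraries Ccn1, at 226 ± 70.1 TPM (n = 11), and Ccn2, at 119 ± 49.8 TPM, stood above Tpm1, at 89.4 ± 9.72 TPM, though Ccn2 was above Tpm1 in 8 of 11 libraries and not apart by their combined SD. Myl9 rose from 5.23 to 24.2 TPM and stood above Acta2 in every CRE library but in only 6 of 10 RFP libraries.

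Other genes of the same programs were described by counts alone, as their lists were chosen with earlier results known and were not tested as sets. They are to be read against the 16.4% of all genes that were higher and the 13.8% that were lower. Of 28 other contractile and adhesion targets of serum response factor and MRTFs, 25 were tested, 11 were higher and 4 lower, with a median log2 fold change of 0.64. Ckap4 of the endoplasmic reticulum (1.01), Vcl, which encodes the focal adhesion protein vinculin (1.20), and Itga5, the fibronectin receptor subunit (1.83), had the smallest p among those that rose, and every CRE library lay above every RFP library in each. Actn1, Csrp1 and Fhl2 fell by 0.46, 0.63 and 0.80, and the call of Fhl2 was lost over all 23 libraries and without any of RFP3-1, RFP3-3 or RFP3-4. The call of Csrp1 was lost with libraries summed per culture number (edgeR adjusted p = 0.233), without culture 1 (0.132) and without culture 2 (0.615). That of Actn1 was lost without culture 1 (edgeR adjusted p = 0.0534) and without culture 2 (0.109). The smooth muscle genes Myh11 and Lmod1 had too few counts to be tested.
Of 18 genes of the YAP, TAZ and TEAD system besides Ccn1 and Ccn2, 16 were tested, 11 were higher and 2 lower, and the median was 1.06. Amotl1 rose by 1.47 (edgeR adjusted p = 5.23e-10), Ptpn14, a binding partner of YAP, by 2.18 and Tead1 by 1.12, each without overlap between groups. Lats1, a kinase that restrains YAP, and Crim1 fell by 0.36 and 0.69, the call of Lats1 being lost without RFP1-1 (edgeR adjusted p = 0.0611). The related kinase gene Lats2 went the other way, with a log2 fold change of 0.73 over the 19 libraries (edgeR adjusted p = 0.000742).
Of 12 immediate early targets, 5 were higher and 1 lower. Ier3, Fosb and Fos rose by 2.03, 1.78 and 1.26 on the log2 scale, while Egr3 fell by 1.56 (edgeR adjusted p = 7.85e-07). Fos did not pass over all 23 libraries (edgeR adjusted p = 0.11). Over the libraries that the study's methods name, 2 of the 12 were higher and 1 lower. Of 19 TGF-beta genes 17 were tested, 7 were higher and 1 lower, led by Ltbp1, which binds latent TGF-beta to the matrix (from 1.13 to 18.3 CPM), with the receptor gene Tgfbr2 (1.55) and the fibronectin gene Fn1 (1.58). Skil fell by 0.55.

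**Figure D5:**
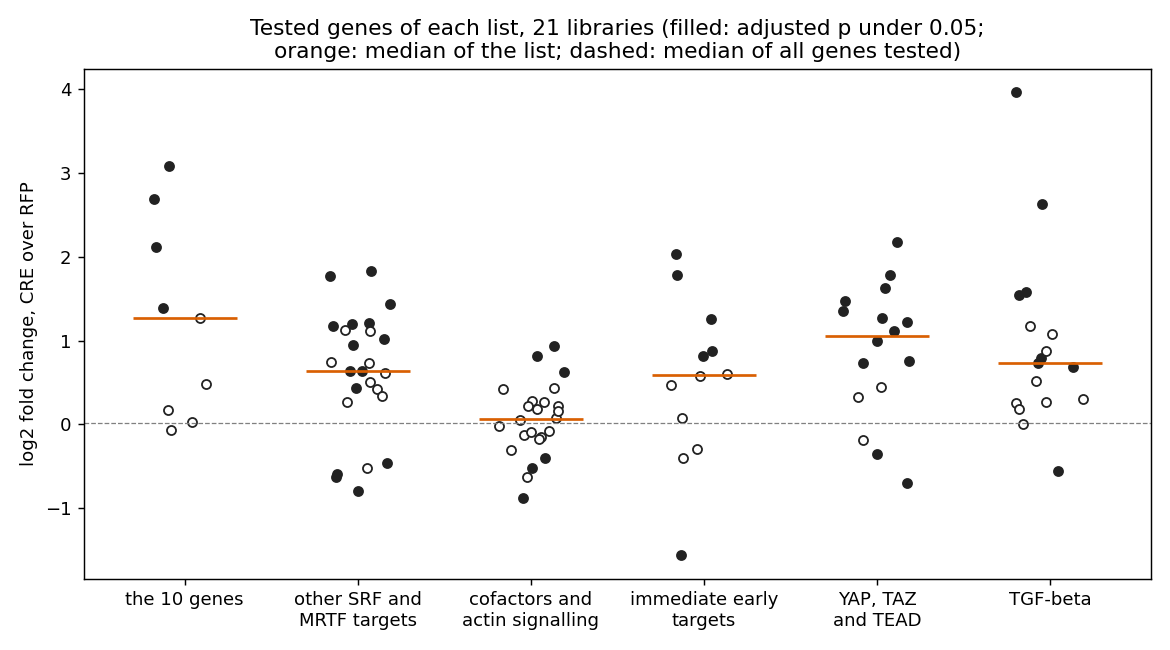
Log2 fold change of CRE over RFP over the 21 libraries for each tested gene of the 6 lists. Filled points passed an adjusted p under 0.05 in edgeR, orange lines are the list medians, and the dashed line is the median of all genes tested, 0.02.

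Markers of cell types were read beside these values, since in bulk RNA fewer cells of a type and less RNA per cell cannot be told apart. Counts of markers stand against the same 16.4% higher and 13.8% lower among all genes. The summed level of 8 neuron markers ran from 5580 to 6648 CPM in RFP and from 2969 to 5214 CPM in CRE libraries, without overlap. Of these 5 were lower, among them Rbfox3, Map2 and Tubb3, and none was higher. The summed level of 10 smooth muscle and pericyte markers ran from 28.4 to 90.2 CPM in RFP and from 76.8 to 284 CPM in CRE libraries, where the lowest value was that of Cre1-3, and without it the CRE sums began at 116 CPM and did not overlap the RFP sums. Of these 5 were tested and 3 were higher, Rgs5 (from 25.3 to 147 CPM), Pdgfrb (from 6.14 to 10.9 CPM) and Notch3 (from 11.7 to 18.7 CPM). Rgs5 carried most of the difference between the sums. Over the 19 libraries 2 of these markers were higher. Kcnj8, Abcc9 and Higd1b were at 0 in most libraries, and Myh11 stayed at or under 2.01 CPM.
Of 12 fibroblast markers 10 were tested, 2 were higher (Foxc1 and Alx4) and 1 lower (Pdgfra, which oligodendrocyte precursors also express). Sums ran from 162 to 435 CPM in RFP and from 92.1 to 597 CPM in CRE libraries. Over the 19 libraries Pdgfra averaged 249 CPM in RFP and 46.5 CPM in CRE libraries, and the median RFP sum was 335 CPM. Foxc1 averaged 3.90 and 51.8 CPM in the same order. Pdgfra thus made up most of the RFP sum, and the sums do not show how the other markers moved. Col1a1, Col1a2 and Col3a1 averaged 12.7, 9.51 and 11.6 CPM in RFP and 29.1, 17.7 and 32.5 CPM in CRE libraries and did not pass. Endothelial sums were at most 10.9 CPM, with Cldn5 at 0 in most libraries. Of 8 progenitor markers 2 were higher (Nes and Pax6) and 4 lower, and sums ran from 783 to 1131 CPM in RFP and from 917 to 1937 CPM in CRE libraries. Nes carried this difference, as the other 7 summed to 645 to 991 CPM in RFP and 249 to 772 CPM in CRE libraries. Of 10 astrocyte markers 3 were higher and 4 lower (3693 to 7942 and 1641 to 5283 CPM). Of 7 markers of the oligodendrocyte lineage 4 were lower (595 to 1571 and 416 to 1910 CPM, the latter limit being Cre1-3, without which it was 919 CPM), and microglia sums were at most 8.06 CPM. The part of cell composition in the values of Vim, Myl9, Ccn1 and Ccn2 was not tested.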

How the data were processed

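RNA of primary hippocampal neurons was measured in 23 libraries. The authors prepared stranded mRNA libraries, aligned reads with STAR 2.7.8a to GRCm39 (Ensembl release 110, 2 mismatches in 50 bases) and ran featureCounts 1.5.0-p1 for the counts per gene, versions being from the submitters' processing notes. The deposited values are whole-number counts without normalization. The strand setting and the treatment of multimapping reads are not given in the sources used here. Exons of Acta2, Tagln, Cnn1, Myl9, Tpm1, Ccn1 and Ccn2 overlap those of a gene on the other strand, so their counts depend on that setting.

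Identifiers were named with the GENCODE M39 annotation of GRCm39 (56323 of 56941). Groups and numbers came from the sample titles. The 21 libraries are those of the study's own count table. Methods names Cre1-3 and Cre3-3 as removed instead, and that set, all 23 libraries and 19 libraries were alternatives. Totals of the 21 libraries ran from 7430401 to 17112815 counts. Depth limits Cnn1, Tpm2, Tagln and Acta2, which fell to 5 or fewer counts in at least 1 library.

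CRE was compared with RFP in R 4.3.3 with edgeR 4.0.16 (filterByExpr, TMM, robust glmQLFit, glmQLFTest), with p-values of all 14488 tested genes adjusted by Benjamini-Hochberg and called under 0.05. The interaction of culture number and virus was tested in the same way. DESeq2 1.42.0 and limma-voom (limma 3.58.1) were alternatives. The procedure was tested on simulated data. CPM used TMM factors over genes kept by the filter when all 23 libraries entered. Correlations used numpy 2.4.6 and scipy 1.17.1, and their permutation p-values were added after the data were seen. The members and gene lists were chosen with earlier results of these data known. Genes are named by rule: all members, Nedd8, the relatives of the members, up to 3 higher and 3 lower genes of each list by smallest p, leading markers of each cell type and the 5 genes most like the members. Mrtfa, Mrtfb, Myocd, Rhoa, Kctd10, Lats2, Myh11, Lmod1 and the other markers were named after their values were seen.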

Additional observations from a re-analysis of the deposited data

Results flagged for a closer look

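Each gap between the highest or lowest library and its neighbour was compared with Dixon's critical value in the 10 RFP libraries and in each set of 4 libraries of 1 group and culture number, and chance alone flags about 1 in 20 such groups. Over 80 gaps in 40 such groups, 9 stood out, all at the upper end. Srf in Cre1-3 was 137 CPM, next to 30.8 CPM in the library below it in culture 1, and Vim in the same library was 1010 CPM, next to 549 CPM. In RFP3-1, Acta2 was 18.5 CPM (next 6.90), Tagln 9.29 CPM (next 3.77), Tpm1 209 CPM (next 170.1) and Tpm2 4.95 CPM (next 2.29). In Cre2-2, within culture 2, Acta2 was 11.8 CPM (next 1.63), Tagln 7.98 CPM (next 1.37) and Tpm2 9.04 CPM (next 1.48).

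Cre3-3, which the comparison of 21 libraries left out, was above the highest of the 10 RFP libraries in 6 genes. Srf was 122 CPM there (highest RFP 45.1), Vim 630.2 CPM (288), Ccn1 86.6 CPM (39.9), Ccn2 36.2 CPM (15.7), Myl9 11.6 CPM (7.54) and Tpm2 6.14 CPM (4.95). This library held 1546796 counts, and 1.83% of them were mitochondrial. The value of Tpm2 rested on 9 counts and that of Myl9 on 17. Like Srf, both have a high GC content, above that of 92.8% and 87.4% of tested genes. The part of GC content in these values was not tested.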

How the results depend on the processing

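Myl9, Vim, Ccn1 and Ccn2 kept their direction and stayed past the threshold under all 36 alternatives, with adjusted p of at most 0.00287, 0.00303, 0.00437 and 9.70e-05. Tpm2 passed under limma-voom and without RFP3-1, and in no other alternative. The number of genes called was 6920 without the filter on low counts and 2114 without culture 2, where fewer libraries were compared, and 5507 without Cre1-3. Without that filter Ccn1 was the 1 member whose effect differed between cultures (edgeR adjusted p = 0.0349), and the cause was not tested.

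Signs changed only for values that did not pass the threshold. Srf was -0.20 over the libraries of Methods, -0.19 over the 19, -0.23 with DESeq2, -0.0842 with limma-voom and -0.23 without culture 1. Acta2 was 0.0029 over the libraries of Methods, 0.39 with limma-voom, 0.0449 with library totals alone, 0.18 with culture number as a block and 0.53 without culture 3. Without culture 2, Tagln was -0.0877 and Tpm1 -0.0062. Tpm3 was 0.0076 over the libraries of Methods, 0.0517 with library totals alone and 0.0076 without culture 3, Myl6 0.0101 over the 19 and 0.0416 with library totals alone, Gfap 0.10 without culture 1 and Tagln2 -0.0743 without culture 3. With each library left out in turn, values ran from -0.24 to 0.23 for Srf, from -0.36 to 0.49 for Acta2, from -0.0287 to 0.0755 for Tpm1, from -0.36 to 0.0145 for Gfap, from -0.10 to 0.0276 for Myl6 and from -0.0851 to 0.0014 for Tpm3.

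The members called were 4 with the culture number as a replicate block and 4 with the library number, and the genes called were 4267 and 4235. Deviations of CRE and RFP libraries with the same culture number correlated at 0.0234, 0.0199 and 0.144 over 14382 genes. Culture number 3 correlated best with its own, and numbers 1 and 2 did not. With 3 numbers and values this low, the correlations cannot decide whether libraries with the same number shared a culture. Of the other named genes, Tagln3 did not pass in 12 alternatives, Fhl2 in 7, and Actg1 and Lats1 in 5 each. Csrp1, Fos and Skil did not pass in 3 each, and Actb, Actn1 and Kctd13 in 2 each. Ccn3, Cfl1, Elk1 and Myl12b did not pass in 1 each. Tpm4 and Cnn3 passed in 12 and 11. Depth limits Cnn1, Tagln, Acta2 and Tpm2.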
